A study of Mus musculus with 4 samples.

Results

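Collagen genes were taken as every gene with a probe set that carries a single gene symbol made of Col, a number, the letter a and a number. This gave 42 of the 18193 genes measured, of which 11 encode fibrillar chains, 6 the type IV chains of basement membranes and 25 other chains. Each gene was read by its brightest probe set over all 4 arrays, and 18 of the 42 lay in the brighter part of all genes (9096 of 18193, with a geometric mean intensity above 190.2). Col6a6, Col21a1 and Col28a1 were not analysed here.

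RNA labelled as coming from mouse hearts was hybridised to 4 Affymetrix arrays. The study's methods describe adult mice on a C57BL/6J background. By those methods, the 2 arrays given the label Rhau KO come from CAAG-ERT2-Cre;Rhau F/F mice. In these mice, Cre fused to an estrogen receptor domain can delete floxed Rhau (Dhx36, an RNA helicase of G-quadruplexes) in any cell that expresses it. The 2 given the label Control are described there as coming from Rhau F/F mice, which carry the floxed alleles without Cre. By the study's description, mice of both groups received 5 doses of tamoxifen at 2 months of age, and hearts were taken 2 months after it. An effect of Cre itself and of the deletion therefore cannot be told apart, and since the labels do not limit Cre to 1 cell type, neither can an effect in fibroblasts or vessels and one in cardiomyocytes. Nothing in the labels says that replicates were separate animals, so p-values measure the spread between these samples, which may be technical.

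The labels did not hold against the targeted gene. On the brightest of its 3 probe sets Dhx36 read 568 and 537 in the Rhau KO-labelled arrays and 327 and 194 in the Control-labelled ones, and its mean was higher in the Rhau KO-labelled arrays on the other 2 as well, opposite to the labelled deletion. All directions below are therefore those of the array labels. Control replicate 1 also stood apart. The summed intensity of 10 cardiomyocyte markers was 87510 there and 400582 to 418496 in the other 3 arrays, and that of 11 skeletal muscle markers was 469866 against 48059 to 63686. Control replicate 1 was the lowest array for each of the 10 and the highest for each of the 11, and Tnni3, cardiac troponin I and named after its values were seen, read 10.3 there against 37838 to 39371. The brightest marker of each list moved less, with Myl3, a myosin light chain shared with slow skeletal muscle, at 37087 against 48658 to 50786, and Ckm, muscle creatine kinase, at 39279 against 29873 to 31305. Differences between the labels are given with all 4 arrays and without Control replicate 1 for the named brighter collagens and for each gene list. In RNA from whole tissue, fewer cells of a type and less RNA per cell cannot be told apart.

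Collagens are triple helices wound from 3 alpha chains. Chains of types I, III and V assemble into the banded fibrils that carry tension, and in the heart they are made mainly by fibroblasts. Type IV chains instead form the network under endothelium and around each cardiomyocyte, where laminins, nidogens and perlecan are bound to it. The remaining types make beaded filaments (type VI), decorate fibrils (types XII and XIV), link vessels to their matrix (types XV and XVIII) or span the cell membrane.

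The genes of type IV collagen lie head to head in pairs, Col4a1 beside Col4a2, Col4a4 beside Col4a3 and Col4a6 beside Col4a5. The gene records of Col4a1 and Col4a2 overlap by 85 bases, so their start region lies inside both genes and not between them. It is shown because both genes are transcribed from it in opposite directions and read alike on these arrays. It runs from the start site of Col4a2 to that of Col4a1 in the GRCm38.p6 promoters of RefSeq, 22 bases at chr8:11312805-11312826, plus strand, with a GC box in capitals.
Col4a1 and Col4a2: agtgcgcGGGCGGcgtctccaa

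Col1a2 and Col3a1, partners in the interstitial fibril, went opposite ways on Control replicate 1 by brightest probe set, so their upstream sequences are shown. Each is the 250 bases before the start site on the plus strand, chr6:4505368-4505617 for Col1a2 and chr1:45311288-45311537 for Col3a1, with matches to 3 promoter motifs on either strand in capitals. A CCAAT box was searched by that word. The letters of the TATA box were TATAAA, which bind the TATA-binding protein. Those of the GC box, bound by factors of the Sp family, were GGGCGG.
Col1a2: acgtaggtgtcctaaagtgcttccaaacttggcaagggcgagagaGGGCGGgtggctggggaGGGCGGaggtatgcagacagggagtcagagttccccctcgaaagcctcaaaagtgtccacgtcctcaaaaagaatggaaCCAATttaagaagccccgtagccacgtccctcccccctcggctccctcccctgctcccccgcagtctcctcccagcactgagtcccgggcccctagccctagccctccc
Col3a1: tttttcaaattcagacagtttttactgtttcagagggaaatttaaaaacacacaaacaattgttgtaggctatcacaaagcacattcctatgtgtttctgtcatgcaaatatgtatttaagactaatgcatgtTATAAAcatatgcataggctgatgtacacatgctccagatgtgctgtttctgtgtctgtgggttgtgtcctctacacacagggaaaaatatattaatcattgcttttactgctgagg
The Col1a2 window holds 1 CCAAT box and 2 GC boxes and the Col3a1 window 1 TATA box, and no matches overlap. Of 32851 such windows in the RefSeq table, 33.8% hold a CCAAT box, 32.7% a GC box and 12.4% a TATA box. A match is a description of the letters only. Of the 42 collagen genes, 33 had an entry.

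No collagen gene passed an adjusted threshold between the labels with all 4 arrays. In the limma fit of all genes, 0 of 42 collagens passed the adjusted threshold of 0.05, where 0% of the 18193 genes passed it. At 2-fold and an unadjusted p under 0.05 the collagens called were again 0, beside 3.29% of all genes, and at an unadjusted p under 0.05 alone 0, beside 4.31% of all genes. The test that the methods name, run on the same values, also called 0 collagens at that unadjusted threshold, beside 941 of the 18193 genes. With 2 arrays a group, an exact permutation test of a single gene cannot go below p = 0.333. The intensities of the labels did not overlap for 15 of 42 collagens (35.7%), beside 36.3% of all genes, so that count sat at the background.

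**Figure D1:**
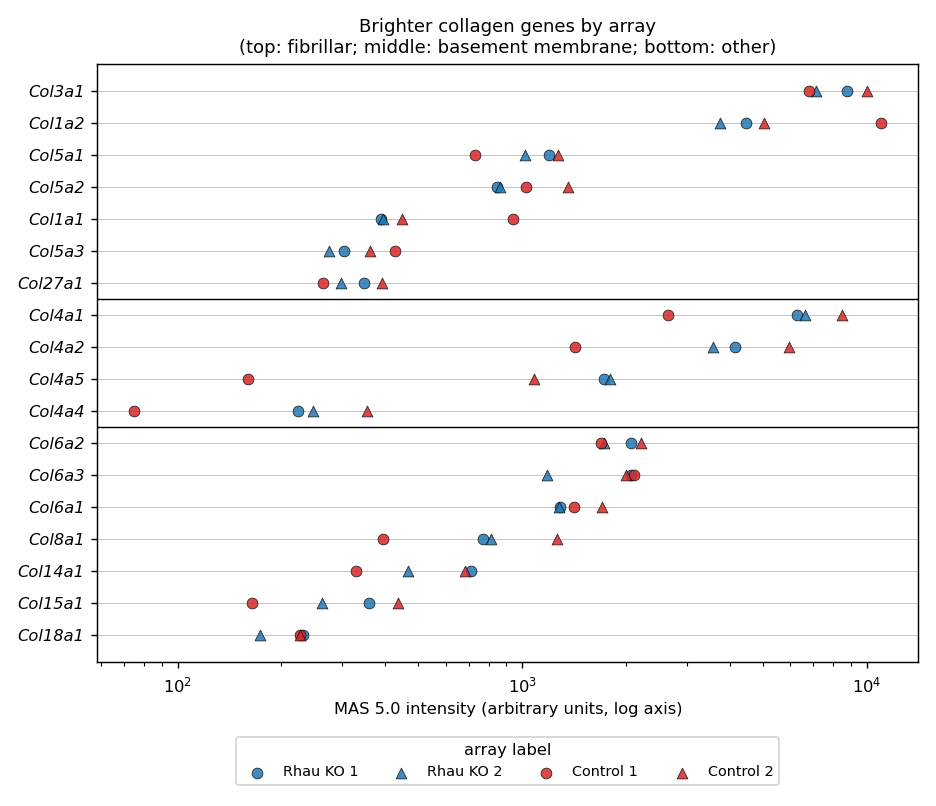
Intensity (log axis) of the 18 brighter collagen genes on each of the 4 arrays, grouped as fibrillar, basement membrane and other. Control replicate 1 reads above the other arrays for Col1a2 (11014) and Col1a1 (938) and below them for Col4a1 (2654), Col4a2 (1425) and Col4a5 (161).

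Among the fibrillar collagens, 1 of 11 was higher and 10 lower by mean log2 intensity in the Rhau KO-labelled arrays, with a median log2 difference of -0.73 (all genes 0.09). Without Control replicate 1 the median was -0.30 (all genes 0.03), with 9 of 11 lower. Col1a2, the second chain of type I collagen, read 4456 and 3748 in the Rhau KO-labelled arrays and 11014 and 5037 in the Control-labelled ones. The groups did not overlap, but Control replicate 1 was 2.51-fold above the geometric mean of the other 3 arrays. The log2 difference was -0.87 (standard error 0.42, 95% interval -1.99 to 0.26, adjusted p = 0.873 from limma), and -0.30 (standard error 0.13) without Control replicate 1. Col1a1, the first chain, read 388 and 393 against 938 and 449 (here and below, values of the Rhau KO-labelled replicates 1 and 2 stand before those of the Control-labelled replicates 1 and 2). Again the Control reading that stood out was replicate 1, at 2.29 times the geometric mean of the others, and the log2 difference shrank from -0.73 (standard error 0.43) to -0.20 (standard error 0.20) without it.

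On its brightest probe set, Col3a1, the chain of type III collagen, went the other way on that array. It read 8775 and 7143 in the Rhau KO-labelled arrays, 6818 in Control replicate 1 and 10053 in Control replicate 2. Control replicate 1 was thus the lowest of the 4 and Control replicate 2 the highest, and the groups overlapped (log2 difference -0.06, standard error 0.28, and -0.34, standard error 0.14, without Control replicate 1). On its other probe set Control replicate 1 was instead slightly the highest, at 570 and 472 against 603 and 594. The upstream windows printed above belong to Col1a2 and Col3a1.

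Type V chains, which set fibril width, were mixed. On its brightest probe set Col5a1 read 1193 and 1017 against 731 and 1273, lowest on Control replicate 1 and overlapping between the labels. Its log2 difference there was 0.19 (standard error 0.35), and -0.21 (standard error 0.16) without that array. Its other probe sets had the opposite sign with all arrays. One read 253 and 480 against 499 and 574, without overlap (log2 difference -0.62), and the dimmest gave -1.34. Col5a2 read 843 and 864 against 1024 and 1360, below both Control arrays in each Rhau KO-labelled array. Its log2 difference was -0.47 (standard error 0.25) with all arrays and -0.67 (standard error 0.14) without Control replicate 1. On this brightest probe set the gap thus did not rest on that array. The other probe set of Col5a2 read 215 and 229 against 337 and 233. There the log2 difference went from -0.34 to -0.07 without Control replicate 1, so most of the gap rested on that array. Col5a3, at 304 and 275 against 428 and 361, did not overlap either, with a log2 difference of -0.44 (standard error 0.28) and -0.32 (standard error 0.24) without Control replicate 1. Col27a1, a fibrillar chain of cartilage, read 347 and 298 against 263 and 393, with the Control arrays on both sides of the others. Its log2 difference of -0.00056 (standard error 0.34) became -0.29 (standard error 0.24) without Control replicate 1.

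The 4 fibrillar genes of the dimmer part encode chains of cartilage and minor fibrils (Col2a1, Col11a1, Col11a2 and Col24a1, named after their values were seen). They read at most 74.2 outside Control replicate 1 and were highest on that array, at 262 for Col11a2, 173 for Col11a1, 126 for Col24a1 and 30.0 for Col2a1. Markers of tendon moved with them. The summed intensity of 7 tendon markers was 23772 on Control replicate 1 and 549 to 730 on the other 3, with Thbs4, a matrix glycoprotein of muscle attachment, at 5183 against 344 to 524. The sum of 6 measured cartilage and bone markers was 2003 against 319 to 535, of which Comp, also on the activated fibroblast list, gave 1563 on Control replicate 1. Only 3 of the 6 were highest there, and Acan, the cartilage proteoglycan aggrecan, named after its values were seen, was lowest, at 22.7 against 35.1 to 40.2. The part of these markers in the collagen readings was not tested.

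**Figure D2:**
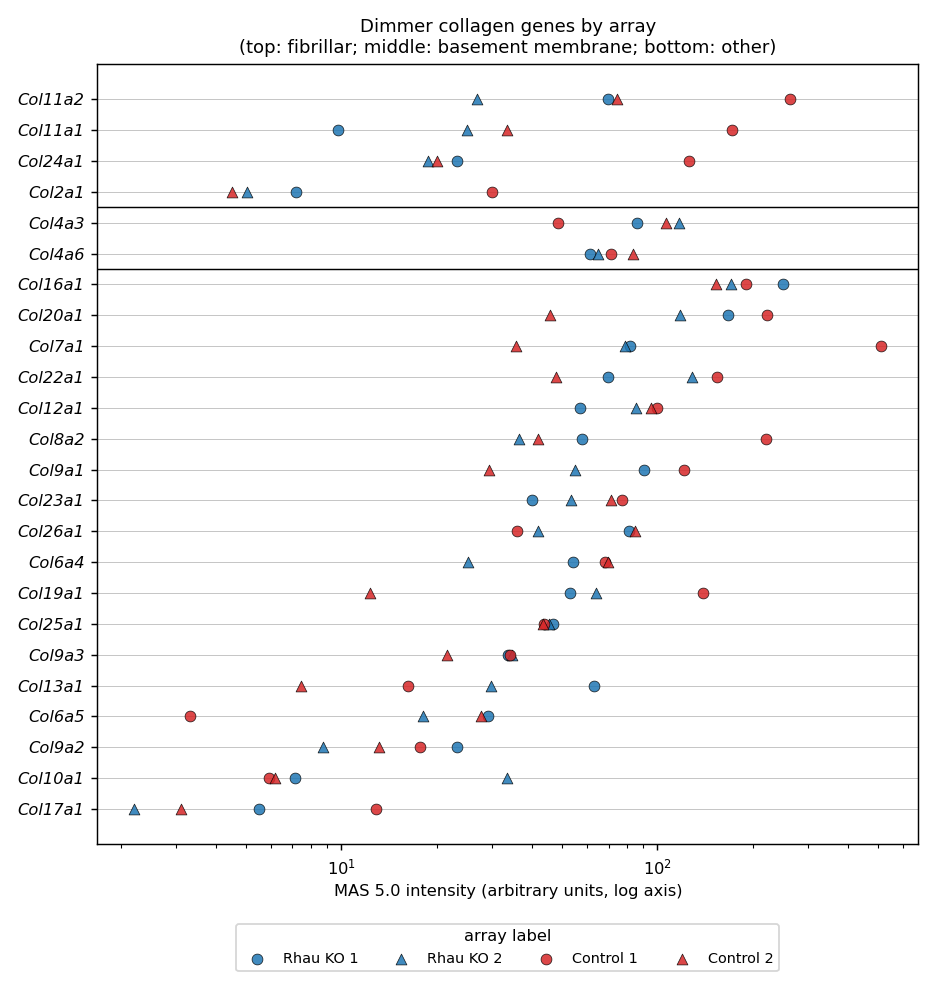
Intensity (log axis) of the 24 dimmer collagen genes on each of the 4 arrays. The highest point is Col7a1 on Control replicate 1 (510), and outside that array no gene reads above 249.

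Type IV collagen was the class in which Control replicate 1 lay farthest below the rest. By mean, 5 of 6 chains were higher in the Rhau KO-labelled arrays (median log2 difference 0.46), but without Control replicate 1 the direction turned and 5 of 6 were lower (median -0.40). Col4a1 read 6285 and 6638 in the Rhau KO-labelled arrays, 2654 in Control replicate 1 and 8496 in Control replicate 2. Its neighbour Col4a2 read 4156 and 3574 against 1425 and 5969. Both genes were lowest on Control replicate 1 and highest on Control replicate 2, with the Rhau KO-labelled arrays between them. The log2 difference of Col4a1 was 0.44 (standard error 0.59) with all arrays and -0.40 (standard error 0.10) without Control replicate 1. That of Col4a2 was 0.40 (standard error 0.71) and -0.63 (standard error 0.13). A second probe set of Col4a1 was also lowest on Control replicate 1 and highest on Control replicate 2, at 1040 and 1033 against 647 and 1805. Its log2 difference with all arrays had the other sign, at -0.06, and was -0.80 without Control replicate 1.

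Col4a5, an X-linked chain of the alpha 5 networks, was the exception. It read 1730 and 1803 in the Rhau KO-labelled arrays (1766 ± 51.6, SD, n = 2) and 161 and 1084 in the Control-labelled ones (622 ± 653, SD, n = 2). Both Control arrays were lower, and Control replicate 1 was 9.35-fold below the geometric mean of the other 3. The log2 difference was 2.08 (standard error 0.94, 95% interval -0.41 to 4.57, adjusted p = 0.873 from limma). Without Control replicate 1 it was 0.70 (standard error 0.13), and the adjusted p from limma was 0.0989, within a range of 0.000197 (without Control replicate 2) to 0.99996 over its 12 alternatives. The second probe set of the gene ran in the same direction, at 758 and 649 against 77.9 and 449.

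Col4a4, one of the chains joined to Col4a5 in the alpha 3-4-5 network of mature basement membranes, read 223 and 247 against 74.9 and 354. This was the order of Col4a1 and not of Col4a5, with Control replicate 2 highest. Its log2 difference was 0.53 (standard error 0.81) and -0.59 (standard error 0.26) without Control replicate 1. The dimmer chains Col4a3 and Col4a6 read 48.4 to 117 over all arrays, and Col4a6 was the chain with a lower mean in the Rhau KO-labelled arrays.

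**Figure D3:**
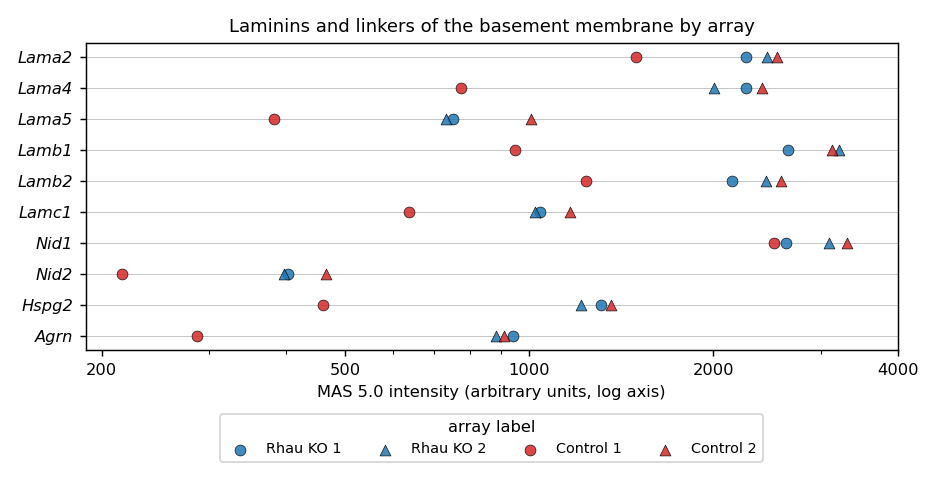
Intensity (log axis) of the 10 laminins and linker proteins of basement membranes on each of the 4 arrays. Control replicate 1 is the lowest point for all 10, while the other 3 arrays lie close together.

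The proteins to which type IV networks are joined were read from a list of 10 laminin chains, nidogens, perlecan and agrin. None of the 10 passed the adjusted threshold. By mean 9 of 10 were higher in the Rhau KO-labelled arrays (median log2 difference 0.35), and without Control replicate 1 the median was -0.17, with 1 higher and 9 lower. Agrn, the agrin gene and the one with the smallest p, read 940 and 883 against 286 and 908, so Control replicate 2 lay between the Rhau KO-labelled arrays. Its log2 difference of 0.84 (standard error 0.60) was 0.0048 (standard error 0.15) without Control replicate 1. All 10 were lowest on Control replicate 1, by a median of -1.03 on the log2 scale against the mean of the other 3 arrays. For the type IV chains that median was -1.53.

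Endothelial markers moved with the type IV chains. All 8 markers were lowest on Control replicate 1, where their summed intensity was 6108 against 15281 to 16902 on the other arrays, and Esam, an adhesion molecule of endothelial junctions, read 1594 against 3582 to 4743. Markers of mural cells, which also lay down basement membrane, summed to 30915 there and to 41412 to 41790 elsewhere, with Rgs5, a pericyte regulator of G protein signalling, at 16699 against 23286 to 24594. Of the 7 mural markers, 5 were lowest on Control replicate 1 and 0 highest. Fibroblast markers had no such common direction, with 5 of 9 lowest and 2 highest on Control replicate 1 and sums of 70164 and 78990 in the Rhau KO-labelled arrays, 79207 in Control replicate 1 and 81409 in Control replicate 2. Gsn, the brightest of the fibroblast list and an actin-severing protein, read 31137 and 39779 against 42164 and 34773. Activated fibroblast markers summed to 17980 and 20360 against 13500 and 11675, but only 4 of the 7 were higher by mean in the Rhau KO-labelled arrays. Acta2, smooth muscle actin, read 11023 and 6699 against 4452 and 2590, while Fap, a protease of activated fibroblasts, read 438 and 390 against 765 and 567 (both named after their values were seen). Ccn2, a matricellular protein, read 5020 and 11692 against 5689 and 6278. The part of these cell types in the collagen readings was not tested. The 2 measured Schwann cell markers summed to 2720 and 3155 against 4424 and 2956, and the brighter, Pmp22, a myelin protein, read 2554 and 3040 against 2622 and 2826.

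Of the 25 other collagens, 14 were higher and 11 lower by mean in the Rhau KO-labelled arrays, with a median log2 difference of 0.08, near that of all genes (0.09). Leaving out Control replicate 1, 13 were higher and 12 lower, with a median again of 0.08. Type VI collagen forms the beaded filament between cells and fibrils. Col6a1 read 1291 and 1283 against 1417 and 1709, and did not overlap between the labels (log2 difference -0.27, standard error 0.22, and -0.41, standard error 0.13, without Control replicate 1). Col6a2 read 2068 and 1723 against 1699 and 2219, with overlap (-0.04, standard error 0.25, and -0.23, standard error 0.15, without it). Col6a3 read 2076 in one Rhau KO-labelled array and 1178 in the other, against 2114 and 1998, so 1 array set its lower mean (-0.39, standard error 0.34, and -0.35, standard error 0.32). For all 3 chains Control replicate 1 lay within 1.25-fold of the geometric mean of the other arrays. For Col1a1, Col1a2, Col4a1 and Col4a2 it lay over 2-fold away.

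Col8a1, a short chain made in vessel walls, followed the pattern of Col4a1. It read 770 and 815 against 395 and 1264, and its log2 difference turned from 0.16 (standard error 0.60) to -0.67 (standard error 0.15) without Control replicate 1. Col15a1, of the vessel and muscle basement membrane zone, also lay lowest on Control replicate 1 and highest on Control replicate 2, at 359 and 262 against 164 and 438 (0.19, standard error 0.56, and -0.51, standard error 0.28, without Control replicate 1). Its relative Col18a1, the source of endostatin, read 232 and 173 against 227 and 226. Here the Control arrays were nearly equal and lay within the range of the others, and the log2 difference was -0.18 (standard error 0.33) with and without Control replicate 1. Col14a1, which binds the surface of type I fibrils, read 711 and 466 against 329 and 684, with overlap (0.28, standard error 0.47, and -0.25, standard error 0.28, without it).

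Without Control replicate 1, Col13a1, Col19a1 and Col20a1 were at 2-fold and an unadjusted p under 0.05, 3 of 42 beside 4.51% of all genes, and each was higher in the Rhau KO-labelled arrays than in Control replicate 2. Col13a1, a membrane-spanning collagen, read 63.0 and 29.7 against 16.2 and 7.46. Both Control arrays were lower, and the log2 difference was 1.97 (standard error 0.79) with all arrays and 2.53 (standard error 0.95) without Control replicate 1. Col19a1, a fibril-associated chain, read 52.9 and 63.7 against 139 and 12.3, with the Control arrays on both sides (log2 difference without Control replicate 1 2.24, standard error 0.74). Col20a1, of the same group, read 168 and 118 against 221 and 45.9, again with the Control arrays on both sides (1.61, standard error 0.48). None of the 3 had an adjusted p under 0.05 in any alternative.

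The other dim collagens read from 2.21 to 510. Of the 24 in the dimmer part, 13 were under 100 on every array, in the range where 51.7% to 54.0% of probe sets lay, so that differences among them rest on low signal. Col7a1, the anchoring fibril of epithelia, read 510 on Control replicate 1 and 35.6 to 81.9 on the others, and Col8a2 220 against 36.5 to 57.8. Both were named after their values were seen.

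**Figure D4:**
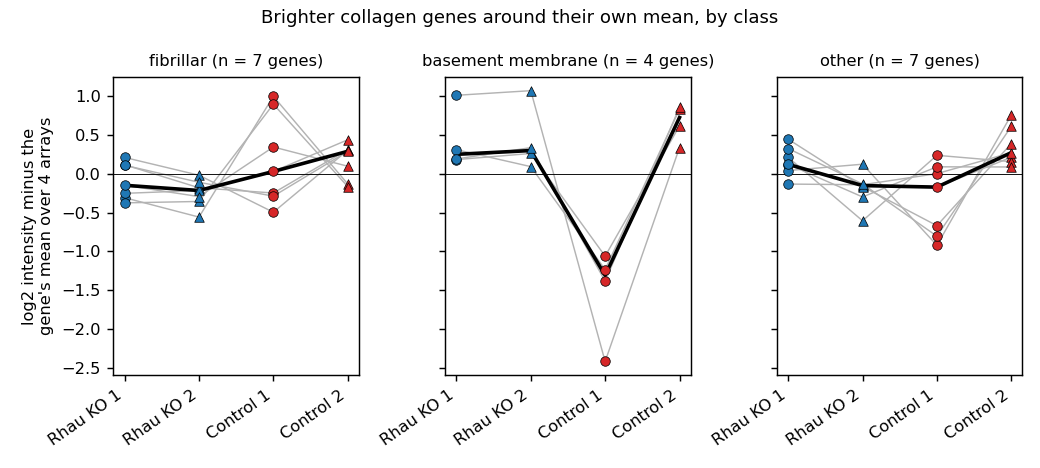
Log2 intensity of the 18 brighter collagen genes on each array relative to the gene's own mean over the 4 arrays, in a panel per class (grey lines join the points of a gene, the black line is the class median). On Control replicate 1 the fibrillar genes spread to both sides of their median of 0.03, and all 4 basement membrane genes lie below 0, with a median of -1.31.

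Counted over all collagens, the readings that stood apart belonged mostly to Control replicate 1. On that array 10 of 42 collagens lay over 2-fold above the highest other array (23.8%, beside 6.05% of all genes), and 6 of these were fibrillar. Only 2 of the 10, Col1a1 and Col1a2, were in the brighter part of the genes, and the rest were in the dimmer part. Another 5 lay over 2-fold below the lowest other array (11.9%, beside 11.3% of all genes), 4 of them type IV chains. The share below was thus at the background and the share above was over it. Rhau KO replicate 1 had 1 collagen above (beside 1.81% of all genes) and 1 below (beside 3.11%). Rhau KO replicate 2 had 1 above (beside 1.85%) and 2 below (beside 2.82%). Control replicate 2 had 0 above (beside 1.83%) and 4 below (beside 3.69%). Within a label, 24 of 42 collagens differed over 2-fold between the Control arrays (57.1%, beside 33.6% of all genes) and 7 between the Rhau KO-labelled arrays (16.7%, beside 17.4%).

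Without Control replicate 1 the brighter collagens were lower in the Rhau KO-labelled arrays almost throughout. By brightest probe set, 17 of the 18 were lower and 1, Col4a5, was higher, with a median log2 difference of -0.33. Of the brighter genes as a whole, 46.7% were lower (median 0.03). On their other probe sets Col14a1 (0.11 and 0.58) and Col27a1 (0.33) were higher. Where the rest of the 17 had other sets, these were lower too. All 7 brighter fibrillar genes and all 7 brighter other collagens were among the 17. The comparison then rests on Control replicate 2 alone, which read highest of the 4 arrays for 11 of 18 brighter collagens (61.1%, beside 25.6% of brighter genes), and that lone array was assumed to vary like the others. The sizes of the 17 were small, from 1.13-fold for Col18a1 to 1.60-fold for Col8a1. Over all 42 collagens, 26 were lower and 16 higher (61.9% lower, beside 47.2% of all genes). Col4a5, Col13a1, Col19a1 and Col20a1 were among the 16. No collagen passed the adjusted threshold of limma (0 of 42, beside 0.819% of all genes), and 9 of 42 were at an unadjusted p under 0.05 (21.4%, beside 13.3% of all genes).

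Leaving out Control replicate 2 instead gave other calls. Then 10 of 42 collagens passed the adjusted threshold of limma, beside 22.5% of all genes, 5 higher and 5 lower in the Rhau KO-labelled arrays. They were Col1a1, Col1a2, Col7a1, Col8a2 and Col11a1 on the lower side and Col4a1, Col4a2, Col4a4, Col4a5 and Col8a1 on the higher side. Their share of the collagens was near that of all genes, so that count sat at the background. At 2-fold and an unadjusted p under 0.05 there were 13 of 42 (31.0%), beside 18% of all genes. The collagens called, and the direction of Col4a1, Col4a2, Col4a4 and Col8a1, thus differed with the Control array that was kept.

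**Figure D5:**
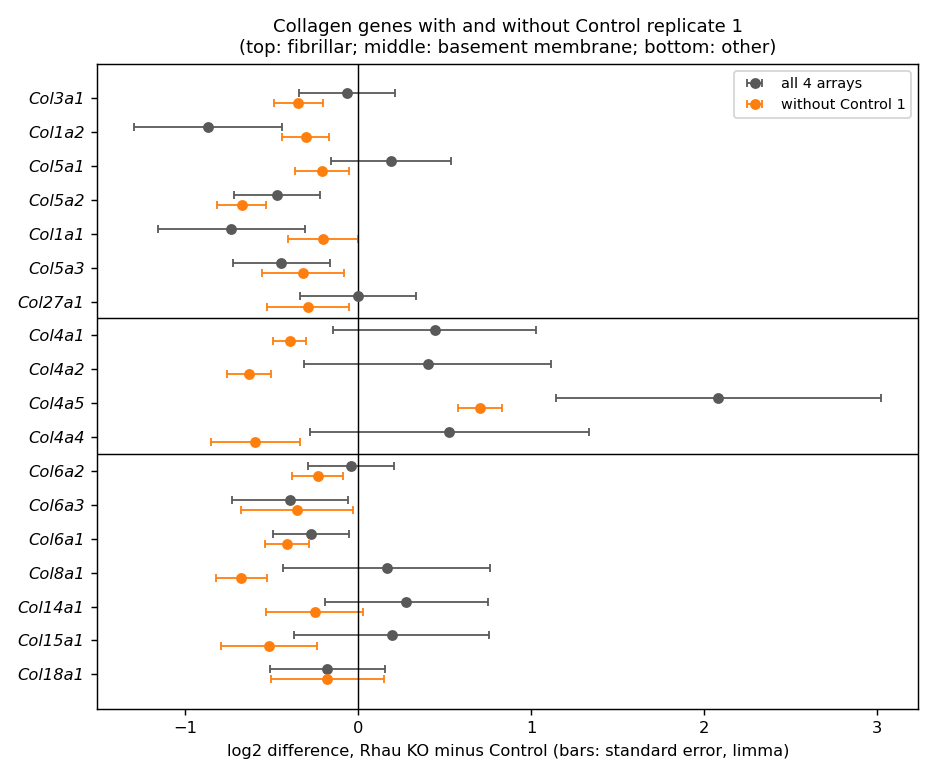
Log2 difference, Rhau KO-labelled minus Control-labelled arrays, of the 18 brighter collagen genes with all 4 arrays (grey) and without Control replicate 1 (orange), with bars of 1 standard error from limma. Without that array 17 of the 18 points lie below 0, and Col4a5 stays above it at 0.70.

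Probe sets of a gene read different stretches of its transcript and did not always agree. Of 27 collagens with more than 1 probe set, the sign of the log2 difference between the labels was the same on every set for 15, and Control replicate 1 lay above all 3 other arrays on every set, or below them on every set, for 12. Col22a1, a chain of tissue junctions such as that of muscle and tendon, read 154 on Control replicate 1 against 47.6 to 128 on its brightest set, and 797 against 4.77 to 13.6 on another. For Col12a1, which binds fibrils in tendon and muscle sheath, the brightest set gave 99.6 against 57.0 to 95.2 and another gave 506 against 22.1 to 63.1. Its remaining sets were dimmer and did not follow. In one, Control replicate 1 was lowest, at 4.65 against 21.4 to 27.7, and in the other it read 12.8 against 4.66 to 45.3. Both genes were named after their values were seen, and with the brightest set alone neither stood apart.

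The genes that build, cut and bind collagen were read from a list of 63, of which 58 were measured. None passed the adjusted threshold of limma with all 4 arrays, and 34 were higher and 24 lower by mean in the Rhau KO-labelled arrays (median log2 difference 0.10, all genes 0.09). The balance turned without Control replicate 1, with 23 higher and 35 lower (median -0.10, all genes 0.03). A single gene was at 2-fold and an unadjusted p under 0.05, beside 3.29% of all genes. It was Mmp8, neutrophil collagenase, which read 23.3 and 26.7 against 2.10 and 5.88, all in the dim range (log2 difference 2.83, standard error 0.90, adjusted p = 0.873, and 2.08, standard error 1.02, without Control replicate 1).

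Chain hydroxylation and folding takes place in the endoplasmic reticulum before the helix winds. Of 16 such genes measured, 12 were higher and 4 lower by mean, and 0 were called. With Control replicate 1 left out, 6 were higher and 10 lower, and the median log2 difference went from 0.23 to -0.05. P3h4, part of the lysyl hydroxylation complex and the one with the smallest p, read 999 and 1032 against 243 and 779 (log2 difference 1.22, standard error 0.60, and 0.38, standard error 0.14, without Control replicate 1). P4ha1, the catalytic chain of prolyl 4-hydroxylase, read 952 and 1037 against 661 and 2584, and Serpinh1, the collagen chaperone HSP47, read 4500 and 3640 against 1141 and 8353. Both were lowest on Control replicate 1 and highest on Control replicate 2, as Col4a1 was, and both were named after their values were seen. Without Control replicate 1 the log2 difference of P4ha1 was -1.38 (standard error 0.13), and without Control replicate 2 it was 0.59. For Serpinh1 it was -1.05 (standard error 0.15) without Control replicate 1 and 1.83 without Control replicate 2. The direction of both genes thus turned with the Control array that was kept.

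Secretion and propeptide removal, read by 11 genes, had 4 higher and 7 lower by mean, and 5 higher and 6 lower without Control replicate 1. Its smallest p was that of Tll1, a procollagen C-proteinase, which was dim at 23.6 and 4.94 against 35.7 and 31.9 (log2 difference -1.64, standard error 0.97, and -1.56, standard error 1.31, without Control replicate 1). Among 4 cross-linking genes, 1 was higher and 3 lower, with and without Control replicate 1. Lox, lysyl oxidase, read 181 and 132 against 698 and 144. It shared with Col1a1 and Col1a2 a reading on Control replicate 1 above all others, and its log2 difference went from -1.04 (standard error 0.83) to 0.10 (standard error 0.38) without that array.

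Fibril regulators, the small leucine-rich proteoglycans and glycoproteins that coat the fibril, had 3 of 8 higher and 5 lower, and 1 higher and 7 lower without Control replicate 1. Ogn, osteoglycin, read 6661 and 6813 in the Rhau KO-labelled arrays and 4867 and 4524 in the Control-labelled ones. The groups did not overlap, and the arrays of each label lay close together. Its log2 difference was 0.52 (standard error 0.19), with an unadjusted p of 0.0418 and an adjusted p of 0.873 from limma, and 0.57 (standard error 0.10) without Control replicate 1. Fmod, fibromodulin, named after its values were seen and also on the tendon list, read 13542 on Control replicate 1 and 35.5 to 89.1 on the others.

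Degradation and uptake had 8 of 11 genes higher and 3 lower by mean, and 6 higher and 5 lower without Control replicate 1. Collagen receptors had 6 of 8 higher and 2 lower, and 4 higher and 4 lower without it, where their median log2 difference went from 0.26 to -0.06. Itga2, the collagen-binding integrin chain of platelets and epithelia, read 73.0 and 41.2 against 42.3 and 9.30, and its log2 difference was 1.47 (standard error 0.94), and 2.56 (standard error 0.84) without Control replicate 1. Control replicate 2 was its lowest reading, and the other 3 arrays lay together at low signal.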

How the data were processed

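The authors deposited MAS 5.0 intensities (algorithm per the submitters' processing notes), linear and scaled to a 2% trimmed mean of 500.003 to 500.004 on every array. No detection calls or scan dates were used here, and the number of arrays limits the precision. Groups came from the sample labels alone. Of 45101 probe sets, 64 controls were left out, and 34945 with 1 gene symbol gave 18193 genes, each by its brightest probe set. All genes were fitted together on log2 intensity, Rhau KO minus Control, in limma 3.58.1 (R 4.3.3; lmFit, then eBayes with a trend), and Benjamini-Hochberg adjustment ran over all 18193 p-values. Tables and plots used Python 3.11.15, pandas 2.3.3 and matplotlib 3.10.9. The code was tested on simulated data.

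The members and gene lists were chosen with earlier results of these data known. Values on every array were given for members in the brighter part of the genes or at 2-fold and an unadjusted p under 0.05, with all arrays or without Control replicate 1 (21 in all), for pathway genes at those thresholds with all 4 arrays or otherwise with the smallest p in their role, and for the brightest marker of a list. Genes named outside this rule are said to be so. The alternatives were eBayes without the trend, 2 other scalings (quantile, median centring), log2(intensity + 32), a fit of the brighter genes, averaging the probe sets of a gene, a block on the replicate number, the Student test of the methods and each array left out. Coordinates are those of the RefSeq promoter table, GRCm38.p6, and all 42 symbols matched RefSeq by Entrez ID.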

Additional observations from a re-analysis of the deposited data

How the results depend on the processing

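With all 4 arrays, 0 collagens were called at the adjusted threshold under the alternatives that kept every array. At 2-fold and an unadjusted p under 0.05 the count was 1 with no trend and 2 with the replicate block. Shares over all genes are not given for these fits, so neither count is read as a result about the collagens. The block changed no difference and no adjusted call of a collagen, and the replicate numbers did not pair the arrays (correlation of replicate 1 minus replicate 2 between groups 0.01 over 18193 genes). Leaving out each array in turn, genes called ranged from 0 to 4097 (149 without Control replicate 1, 4097 without Control replicate 2), collagens called from 0 to 10, and collagens at 2-fold and unadjusted p from 0 to 13 (3 without Control replicate 1, 13 without Control replicate 2, beside 4.51% and 18% of all genes). The median log2 difference ranged from -0.24 to 0.10 for all collagens, -1.26 to -0.30 for fibrillar, -0.40 to 1.36 for basement membrane and -0.18 to 0.12 for other collagens. The median of all genes was 0.09, and -0.03 with median centring or 0.03 with quantile normalization. The median of other collagens was -0.088 with the mean of all probe sets, -0.04 with median centring and -0.02 with quantile normalization.

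With the mean of all probe sets the direction turned for Col5a1 (-0.59), Col5a3 (0.68), Col27a1 (0.40), Col20a1 (-0.27) and Col19a1 (-0.012). Leaving out single arrays turned it for Col4a1 (-0.40 to 1.28), Col4a2 (-0.63 to 1.44), Col4a4 (-0.59 to 1.65), Col3a1 (-0.34 to 0.22), Col5a1 (-0.21 to 0.59), Col27a1 (-0.29 to 0.29), Col6a2 (-0.23 to 0.15), Col6a3 (-0.80 to 0.015), Col8a1 (-0.67 to 1.004), Col14a1 (-0.25 to 0.81), Col15a1 (-0.51 to 0.90), Col18a1 (-0.39 to 0.033), Col20a1 (-0.66 to 1.61), Col19a1 (-1.26 to 2.24), Lox (-2.18 to 0.10), P4ha1 (-1.38 to 0.59) and Serpinh1 (-1.05 to 1.83). The cause was not tested. Of the 21 named collagens, 6 kept their direction in every alternative run, and the lowest adjusted p among them outside the fit without Control replicate 2 was 0.0989.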
